A study of Mus musculus with 20 samples.

Results

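The genes of voltage-gated calcium channels, voltage-gated sodium channels and HCN channels were examined in the hippocampus of Fmr1 KO and C57 (WT) mice. They were taken as all genes whose symbol starts with Cacn, Scn plus a number and a or b, or Hcn plus a number, and that reached 0.5 FPKM in at least 5 of 20 libraries. FPKM are fragments scaled to transcript length and library size. All 34 genes with such a symbol met the level rule, out of 13174 genes that met it and 13256 listed. Results are given for 32 of them, and counts and medians below are over these 32. Fmr1 encodes FMRP, an RNA-binding protein that is missing or scarce in fragile X syndrome in humans.

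The libraries form 4 groups of 5: female KO (Fmr1 KO), female WT (C57), male KO (Fmr1 KO) and male WT (C57). Every title also carries the tag Con before the replicate number. The titles call the mutant mice KO and the genotype field calls them a knockdown. Fmr1 averaged 3.32 ± 0.327 FPKM in female KO and 10.6 ± 0.558 in female WT, and 3.56 ± 0.187 in male KO and 11.4 ± 0.527 in male WT (SD, n = 5 each). The labels give neither the age of the mice nor whether each library came from a separate animal, so p-values measure the spread between these samples. Pan-neuronal markers (Snap25, Rbfox3, Syt1, Camk2a) summed to between 813 and 888 FPKM over all libraries. Total FPKM ran from 230631 to 244976 over the libraries and was not evened out for the main fit. Sequencing depth is unknown.

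Calcium channels open on depolarisation and couple spikes to transmitter release, dendritic calcium signals and gene expression. Each is built around a pore subunit, and many also hold intracellular beta and extracellular alpha2delta subunits that set their trafficking. Sodium channels start and carry the action potential, and HCN channels pass a cation current on hyperpolarisation that shapes dendritic integration and resting potential. Several gamma subunit genes belong to this family by sequence, but their products, the TARPs, act as auxiliary subunits of AMPA-type glutamate receptors. FMRP has been described to bind N-type calcium channels as well as mRNAs.

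The promoters of the 3 genes that passed the test in female KO libraries are shown because these genes carry the KO comparison. They are RefSeq sequences of GRCm38.p6, from 250 bases before to 50 after a transcription start, and 25 of the 32 genes were in the table. Capitals mark GC boxes, searched as GGGCGG on both strands (CCGCCC on the other), with overlapping matches counted separately. Cacna2d1 is shown at chr5:15934441-15934740 on the plus strand, Cacna1e at chr1:154725871-154726170 on the minus strand, and Cacnb1 at chr11:98022578-98022877 on the minus strand. The Cacna1e start lies 158581 bases inside the 5′ end of the deposited locus.
Cacna2d1: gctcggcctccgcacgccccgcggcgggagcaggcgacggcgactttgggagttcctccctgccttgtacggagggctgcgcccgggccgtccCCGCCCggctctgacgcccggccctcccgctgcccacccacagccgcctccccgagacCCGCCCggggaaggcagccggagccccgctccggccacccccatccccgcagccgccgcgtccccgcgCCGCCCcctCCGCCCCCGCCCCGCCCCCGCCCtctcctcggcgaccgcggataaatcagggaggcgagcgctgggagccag
Cacna1e: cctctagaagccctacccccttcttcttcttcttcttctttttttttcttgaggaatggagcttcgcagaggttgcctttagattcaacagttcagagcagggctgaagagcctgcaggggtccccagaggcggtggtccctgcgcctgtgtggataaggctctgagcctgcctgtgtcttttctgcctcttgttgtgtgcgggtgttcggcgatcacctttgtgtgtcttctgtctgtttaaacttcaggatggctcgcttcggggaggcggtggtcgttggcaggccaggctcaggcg
Cacnb1: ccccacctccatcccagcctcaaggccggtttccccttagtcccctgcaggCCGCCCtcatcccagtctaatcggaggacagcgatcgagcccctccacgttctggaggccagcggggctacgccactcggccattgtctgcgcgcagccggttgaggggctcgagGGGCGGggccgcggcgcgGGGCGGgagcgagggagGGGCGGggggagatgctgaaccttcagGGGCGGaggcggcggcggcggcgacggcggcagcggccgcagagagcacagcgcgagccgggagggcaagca

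The Cacna2d1 window held 7 GC boxes and 42 CpG dinucleotides, that of Cacnb1 5 and 34, and that of Cacna1e 0 and 11. At least 1 GC box was in 12 of the 25 channel promoters (48%), against 35.7% of all 32851 promoters in the table. The 25 are 1 promoter per gene, while the table can hold several of a gene. It holds 2 of Cacnb1, of which 1 is shown. The TATA box (TATAAA) was in 4% of channel promoters against 13.6% of all. The E-box CACGTG was in 0 of the 25, against 7.15% of all. These are matches of letters in a window and say nothing of binding. The 2 genes that fell in female KO libraries, Cacna2d1 and Cacna1e, had the most and the fewest GC boxes of the 3.

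The 32 genes spanned levels from 0.459 to 59.3 FPKM, as means over all 20 libraries. Their median of 9.38 FPKM compared with 5.61 FPKM over all tested genes, and 15 of them were above 10 FPKM. The sodium channel beta subunit gene Scn2b, an auxiliary subunit, stood highest of these at 59.3 FPKM, between 32.7 and 64.8 over the libraries. It was followed by the calcium channel beta subunit gene Cacnb3 at 45.6 FPKM and the TARP genes Cacng7 at 39.6 and Cacng8 at 32.7.

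**Figure D1:**
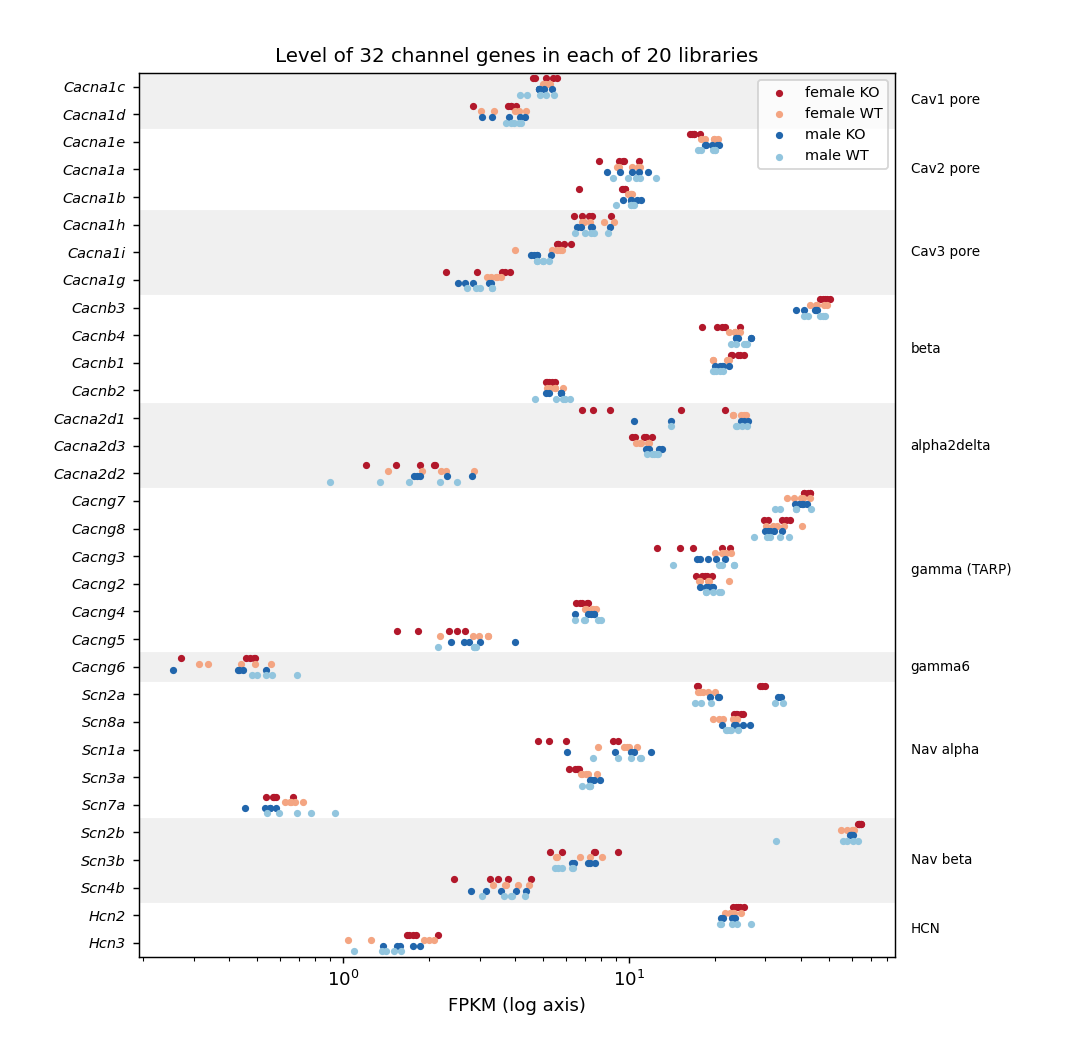
FPKM (log axis) of the 32 channel genes, grouped by role and ordered by mean level within it. Each point is 1 of 20 libraries, 5 per group. Scn2b is highest at 32.7 to 64.8 FPKM, Cacng6 lowest with a mean of 0.459, and the groups overlap for most genes.

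Cacnb4 (23.6), Hcn2 (23.2), Scn2a (23.2), Scn8a (23.1), Cacnb1 (21.6), Cacna2d1 (19.7), Cacng3 (19.6), Cacng2 (19) and Cacna1e (18.6) came next in mean FPKM. Neighbours among these 9 differed by less than the larger of their SDs over 20 libraries. Cacna2d3 (11.6), Cacna1a (10.01), Cacna1b (9.85), Scn1a (8.90), Cacna1h (7.41), Cacng4 (7.17), Scn3a (7.08), Scn3b (6.65), Cacnb2 (5.49), Cacna1i (5.22) and Cacna1c (5.01) lay between 5 and 12 FPKM. Cacna1d (3.79), Scn4b (3.67), Cacna1g (3.15), Cacng5 (2.69), Cacna2d2 (1.93) and Hcn3 (1.62) were lower. Scn7a, whose product is a sodium sensor rather than a voltage-gated channel, averaged 0.623 FPKM and reached 0.5 in 19 libraries. Cacng6, related to the skeletal muscle gamma subunit, averaged 0.459 FPKM and reached 0.5 in 6 libraries.

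KO against WT was tested in each sex with limma on log2(FPKM + 1), over all 13174 genes, with Benjamini-Hochberg adjusted p under 0.05 as the threshold. In females 3 of the 32 genes passed: Cacna2d1 and Cacna1e fell, and Cacnb1 rose. That is 9.38% of them, against 3.32% of all tested genes (438 of 13174), of which 1.53% fell and 1.8% rose. In males 0 of 32 passed in limma, against 0.0455% of all tested genes, and 1 (3.12%) had an unadjusted p under 0.05, against 8.69% of all genes. In females 10 had an unadjusted p under 0.05 (31.2%), against 19.5% of all genes. In the mean KO effect over both sexes 0 of 32 passed in limma, against 3.22% of all genes, and 7 had an unadjusted p under 0.05 (21.9%), against 18% of all genes. In the difference of the KO effects, males minus females, 0 passed in limma, against 0.0455%, and 4 had an unadjusted p under 0.05 (12.5%), against 10% of all genes. The female count fell to 0 without female WT 3, 4 or 5 or female KO 2 or 3, and to 1 without female KO 1 (Cacna1e left) or 5 (Cacna2d1 left). It was also 0 when only the 10 female libraries were fitted (11 at an unadjusted p under 0.05) and with the replicate number as a block (9). The mean effect had 1 gene without female WT 1 or 2 (Cacnb1), female KO 5 or male WT 5 (Cacna2d1) or male WT 4 (Scn7a).

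**Figure D2:**
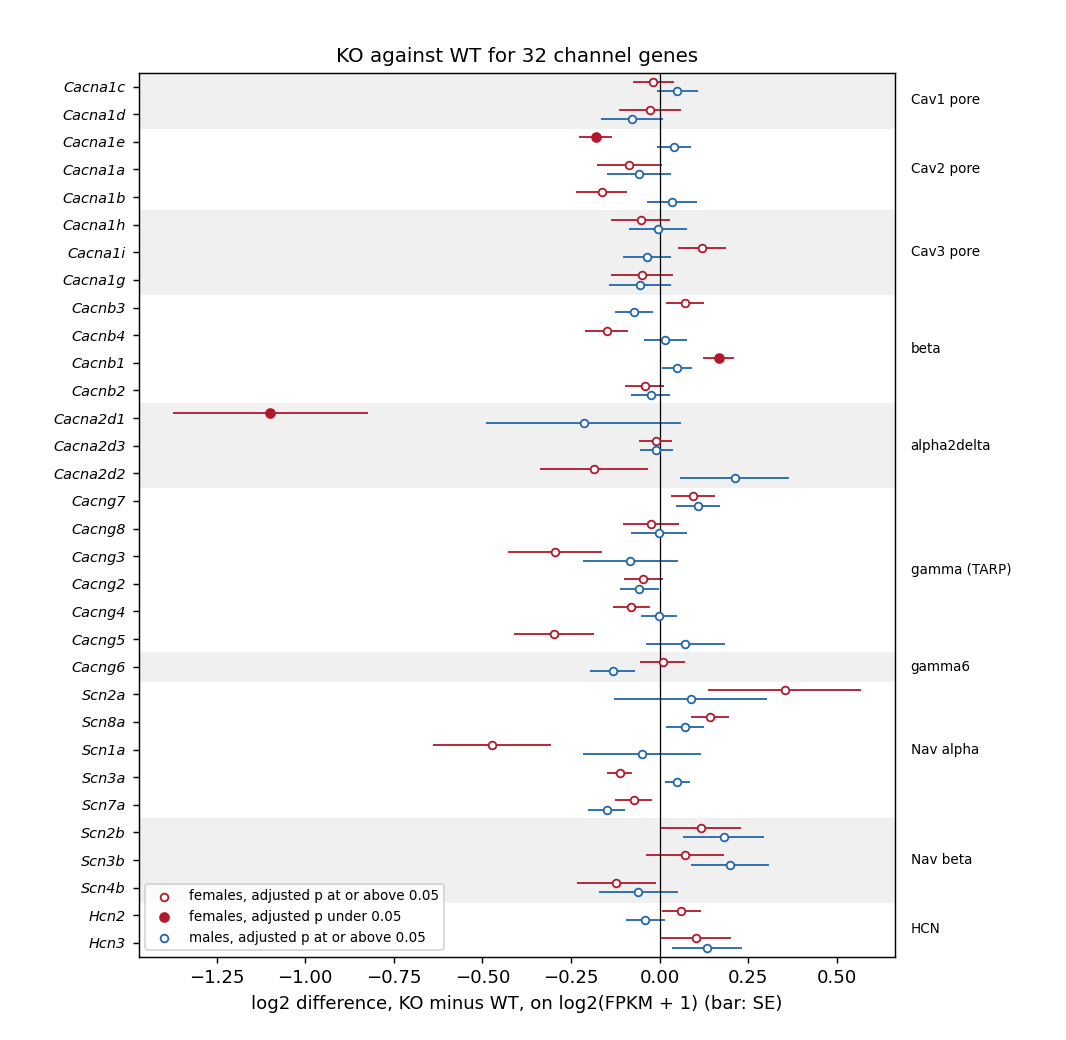
Log2 difference, KO minus WT, of the 32 channel genes in females and males, on log2(FPKM + 1), with SE bars. Filled points passed an adjusted p of 0.05: Cacna2d1 at -1.10, Cacna1e at -0.18 and Cacnb1 at 0.17, all in females.

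The median log2 difference over the 32 genes was -0.04 in females, against 0.01 over all tested genes, and 21 of 32 lay below 0, against 48% of all genes. In males the median was -0.0032, and 18 of 32 lay below 0, against 50.8% of all genes. The 10 female KO and WT libraries did not overlap in 6 genes (Cacna1e, Cacna1b, Cacnb1, Cacna2d1, Scn3a and Scn2b), against 5.99% of all genes. In males they did not overlap in Scn3a alone, against 2% of all genes. Summed over the 32 genes, the level was 468 ± 6.82 FPKM in female KO and 475 ± 11.7 in female WT, and 474 ± 19.7 in male KO and 468 ± 8.37 in male WT (SD, n = 5 each).

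Among pore subunits of calcium channels, the Cav2 genes of presynaptic and dendritic channels were the most abundant, and Cacna1e was the only one of 8 pore genes past the threshold. Cacna1e encodes the R-type pore (mm10, chromosome 1, 154390731 to 154884501). It had 17.7, 16.9, 16.4, 16.5 and 16.8 FPKM in female KO, against 18.4, 17.9, 19.8, 20.4 and 19.8 FPKM in female WT. All 5 KO libraries lay below all 5 WT libraries. The log2 difference was -0.18 (SE 0.05, limma adjusted p = 0.0395), a level of 87.5% of WT.

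In males Cacna1e had 20.4, 18.4, 18.6, 20.7 and 19.5 FPKM in KO, against 17.9, 19.9, 19.6, 17.4 and 19.9 FPKM in WT. The male groups overlapped, with a log2 difference of 0.04 (limma adjusted p = 0.879). The male minus the female KO effect was 0.22 (limma adjusted p = 0.310), so the sexes were not shown to differ in it. The mean KO effect was -0.07 (limma adjusted p = 0.271).

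Cacna1b encodes the N-type pore. It had 9.71, 9.49, 9.68, 6.68 and 9.43 FPKM in female KO, against 10.1, 9.88, 10.1, 10.3 and 10.2 FPKM in female WT. The groups did not overlap, and female KO library 4 stood far below the rest of its group. Cacna1a, the P/Q-type pore, averaged 9.41 ± 1.06 FPKM in female KO and 10.02 ± 0.856 in female WT (SD, n = 5). Cacna1e made up 48.0% of the summed Cav2 level in female KO and 48.9% in female WT, and 49.0% in male KO and 48.0% in male WT. The sum of the 3 genes was 35.3 ± 2.61 FPKM in female KO and 39.4 ± 0.642 in female WT, and 39.9 ± 2.55 in male KO and 39.5 ± 2.23 in male WT (SD, n = 5 each).

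None of the L-type (Cav1) and T-type (Cav3) pore genes passed in any of the 6 comparisons. Cacna1c, the main L-type pore of brain and heart, averaged 5.09 ± 0.436 FPKM in female KO and 5.15 ± 0.118 in female WT, with log2 differences of -0.02 in females and 0.05 in males. Cacna1d, which opens at lower voltages, had log2 differences of -0.03 in females and -0.08 in males. Among T-type pores, which give rise to low-threshold bursts, Cacna1h was highest, with log2 differences of -0.05 in females and -0.0044 in males. Cacna1i had 0.12 in females and -0.04 in males, and Cacna1g -0.05 and -0.06. The limma adjusted p of these 5 genes lay at or above 0.341 in both sexes.

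The beta subunits bind the pore inside the cell and bring it to the membrane, and they differed in direction. Cacnb1 (mm10, chromosome 11, 98001508 to 98023034) had 25.2, 24.1, 22.8, 22.8 and 24.4 FPKM in female KO, against 22.3, 22.3, 21.9, 19.7 and 19.7 FPKM in female WT. Every KO library lay above every WT library. The log2 difference was 0.17 (SE 0.04, limma adjusted p = 0.0380), a level of 113% of WT.

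In males Cacnb1 averaged 21.1 ± 0.838 FPKM in KO and 20.4 ± 0.674 in WT (SD, n = 5), a log2 difference of 0.05 (limma adjusted p = 0.810). Its mean KO effect was 0.11 (limma adjusted p = 0.0557), and the male minus the female effect was -0.12 (adjusted p = 0.527). Cacnb4 averaged 21.1 ± 2.31 FPKM in female KO and 23.4 ± 0.724 in female WT (SD, n = 5), a log2 difference of -0.15 (limma adjusted p = 0.175). In males it differed by 0.02 (limma adjusted p = 0.972). Its mean KO effect was -0.07 (adjusted p = 0.432), and the male minus the female effect was 0.17 (adjusted p = 0.526).

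Cacnb3, the most abundant beta subunit, had log2 differences of 0.07 in females and -0.07 in males (limma adjusted p = 0.485 and 0.758). Cacnb2 averaged 5.29 ± 0.171 FPKM in female KO and 5.48 ± 0.258 in female WT (SD, n = 5). As a share of the summed beta level, Cacnb4 was 21.4% ± 2.20 in female KO and 24.4% ± 0.977 in female WT, and 26.5% ± 2.19 in male KO and 25.8% ± 1.79 in male WT (SD, n = 5 each). The sum itself was 98.7 ± 1.10 FPKM in female KO and 96.1 ± 3.89 in female WT.

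Cacna2d1 showed the largest difference among the 32 genes in females. It encodes the extracellular alpha2delta-1 subunit, a binding site of gabapentin that raises channel density at release sites (mm10, chromosome 5, 15934691 to 16374511). It had 8.54, 7.47, 6.84, 15.2 and 21.6 FPKM in female KO, against 23.1, 23.1, 24.6, 25.3 and 25.7 FPKM in female WT. All KO libraries were lower, but 3 of them lay below 9 FPKM and library 5 was near the WT range. The log2 difference was -1.10 (SE 0.27, limma adjusted p = 0.0349), a mean level of 49.0% of WT.

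In males Cacna2d1 had 26.0, 24.6, 10.4, 14 and 25.1 FPKM in KO, against 23.9, 24.9, 25.9, 23.7 and 14.1 FPKM in WT. The male groups overlapped, and low values stood in both. The log2 difference was -0.21 (SE 0.27, limma adjusted p = 0.896). The mean KO effect was -0.66 (adjusted p = 0.0698), and the male minus the female effect was 0.88 (adjusted p = 0.455).

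**Figure D3:**
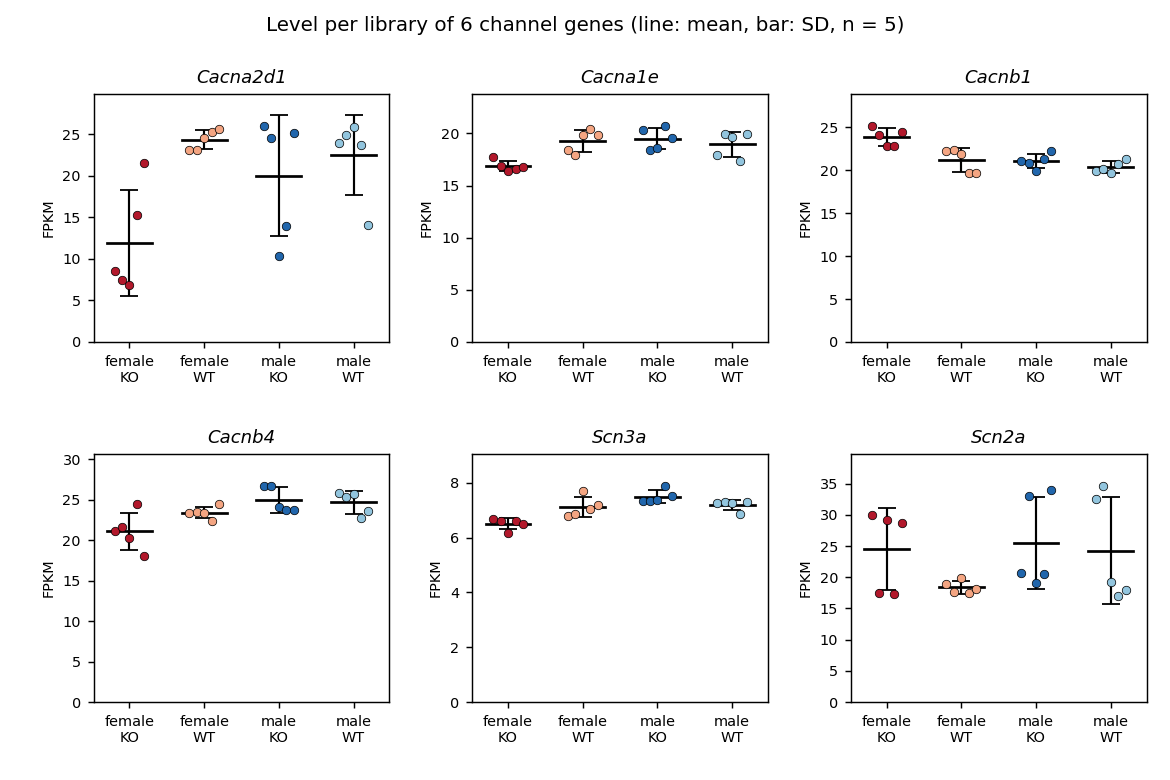
FPKM per library of Cacna2d1, Cacna1e, Cacnb1, Cacnb4, Scn3a and Scn2a, with the mean (line) and SD (bar) of 5 libraries per group. Cacna2d1 reads 6.84 to 21.6 FPKM in female KO and 23.1 to 25.7 in female WT, and Scn2a stands at separate lower and upper levels.

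Over all 20 libraries Cacna2d1 stood at 15.2 FPKM or less in 7 and at 21.6 or more in 13, with none between. The 7 were 4 of 5 female KO, 0 of 5 female WT, 2 of 5 male KO and 1 of 5 male WT libraries. The other alpha2delta genes did not show it. Cacna2d3 averaged 11.1 ± 0.755 FPKM in female KO and 11.2 ± 0.479 in female WT (SD, n = 5), and Cacna2d2 had log2 differences of -0.19 in females and 0.21 in males (limma adjusted p = 0.531 and 0.751). Cacna2d1 made up 36.5% to 63.2% of the summed alpha2delta level in female KO libraries and 62.5% to 66.7% in female WT libraries.

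None of the 6 TARP genes passed in either sex. Cacng7 was the highest, at 42.0 ± 1.09 FPKM in female KO and 39.3 ± 2.83 in female WT (SD, n = 5), with log2 differences of 0.10 in females and 0.11 in males (limma adjusted p = 0.412 and 0.661). Cacng5 had 2.35, 2.66, 2.51, 1.83 and 1.55 FPKM in female KO, against 2.85, 2.19, 3.21, 3.22 and 2.99 FPKM in female WT. The groups overlapped through WT library 2, and the log2 difference was -0.30 (limma adjusted p = 0.152), against 0.07 in males (adjusted p = 0.912). Cacng2, the stargazin gene, and Cacng8, the main TARP of hippocampal pyramidal cells, averaged 18.4 ± 0.867 and 33.4 ± 2.97 FPKM in female KO, against 19.1 ± 1.92 and 34 ± 3.97 in female WT (SD, n = 5). Cacng3 averaged 17.6 ± 4.16 FPKM in female KO and 21.4 ± 1.01 in female WT, and Cacng4 averaged 6.89 ± 0.275 FPKM in female KO and 7.33 ± 0.280 in female WT.

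Cacng6 had log2 differences of 0.01 in females and -0.13 in males (limma adjusted p = 0.960 and 0.576). In males it averaged 0.420 ± 0.102 FPKM in KO and 0.554 ± 0.0822 in WT (SD, n = 5). The skeletal muscle markers, 6 of 8 listed, summed to 3.52 to 4.37 FPKM in male KO and 6.49 to 10.1 in male WT libraries. Their part in the Cacng6 values was not tested.

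Of the sodium channel alpha genes, none passed between KO and WT. Scn3a, the channel of embryonic and early postnatal neurons, had 6.69, 6.60, 6.17, 6.59 and 6.49 FPKM in female KO, against 6.79, 6.87, 7.71, 7.06 and 7.17 FPKM in female WT. All KO libraries were lower, with a log2 difference of -0.11 (SE 0.04, limma adjusted p = 0.0854). In males it had 7.32, 7.35, 7.36, 7.88 and 7.51 FPKM in KO, against 7.25, 7.31, 7.26, 6.86 and 7.29 FPKM in WT. There all KO libraries were higher, with a log2 difference of 0.05 (limma adjusted p = 0.745).

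The male minus the female KO effect on Scn3a was 0.16 (limma adjusted p = 0.328) and its mean KO effect was -0.03 (adjusted p = 0.557). Scn1a, the main sodium channel of fast-spiking interneurons, averaged 6.80 ± 2.04 FPKM in female KO and 9.58 ± 1.06 in female WT, and 9.50 ± 2.21 in male KO and 9.74 ± 1.47 in male WT (SD, n = 5 each). Scn8a, the channel of nodes and axon initial segments, averaged 24.1 ± 0.705 FPKM in female KO and 21.8 ± 1.74 in female WT. Scn7a had log2 differences of -0.07 in females and -0.15 in males (limma adjusted p = 0.458 and 0.392).

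Scn2a, the main sodium channel of excitatory neurons, varied between libraries more than any other alpha gene, with an SD of 28.8% of the mean over 20 libraries. It had 29.9, 17.4, 29.1, 17.2 and 28.7 FPKM in female KO, against 18.9, 17.7, 19.9, 17.5 and 18.1 FPKM in female WT. In males it had 20.6, 33.1, 19.1, 20.5 and 34 FPKM in KO, against 32.5, 34.6, 19.3, 16.9 and 17.9 FPKM in WT. It stood at 20.6 FPKM or less in 13 libraries and at 28.7 or more in 7, with none between.

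The 7 upper libraries of Scn2a were 3 female KO, 0 female WT, 2 male KO and 2 male WT. In 2 libraries, female KO 1 and 3, Scn2a was at its upper level and Cacna2d1 at its lower. Log2 differences of Scn2a were 0.35 in females (limma adjusted p = 0.377) and 0.09 in males (adjusted p = 0.951). Both genes were singled out for the gap in their levels after the values were seen. The share of all tested genes with such a gap is not given, so it is not shown to be particular to these genes. In bulk tissue, fewer cells of a type and less RNA per cell cannot be told apart.

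Sodium channel beta subunits modulate gating and bind cell adhesion partners, and Scn2b, Scn3b and Scn4b did not pass in any of the 6 comparisons. Scn3b had log2 differences of 0.07 in females and 0.20 in males (limma adjusted p = 0.765 and 0.651). Scn2b had 63.0, 64.7, 64.8, 63.8 and 63.9 FPKM in female KO, against 60.9, 61.4, 57.7, 55.3 and 60.1 FPKM in female WT. These did not overlap, but the gene did not pass (log2 difference 0.12, limma adjusted p = 0.613, and 0.0884 to 0.850 over all alternatives). The fit shares its estimate of spread over the 4 groups, and the SD in female KO (0.743 FPKM) and female WT (2.54) was far below that in male WT. In males Scn2b averaged 59.9 ± 0.691 FPKM in KO and 54.1 ± 12.3 in WT (SD, n = 5), where library 3 stood at 32.7, with a log2 difference of 0.18 (limma adjusted p = 0.704). Scn4b averaged 3.50 ± 0.761 FPKM in female KO and 3.86 ± 0.422 in female WT, with log2 differences of -0.12 in females and -0.06 in males (limma adjusted p = 0.576 and 0.927).

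Of the HCN genes, Hcn2 and Hcn3 did not pass. Hcn2, whose channel opens slowly and responds strongly to cyclic AMP, averaged 24.1 ± 0.850 FPKM in female KO and 23.0 ± 1.06 in female WT, and 22.4 ± 1.2 in male KO and 23.1 ± 2.44 in male WT (SD, n = 5 each). Its log2 differences were 0.06 in females and -0.04 in males (limma adjusted p = 0.574 and 0.904). Hcn3 averaged 1.81 ± 0.196 FPKM in female KO and 1.65 ± 0.474 in female WT, and 1.62 ± 0.189 in male KO and 1.39 ± 0.190 in male WT. Its log2 differences were 0.10 in females and 0.13 in males (limma adjusted p = 0.609 and 0.757).

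Males were compared with females within each genotype, as the series names sex differences as its subject. In WT 0 of 32 genes passed in limma, against 0.129% of all tested genes, and 1 (Cacna2d3) had an unadjusted p under 0.05 (3.12%), against 10.3% of all genes. In KO 4 of 32 passed (12.5%), against 5.38% of all tested genes. Scn3a, Cacna1e and Cacnb4 were higher in KO males and Cacnb1 was lower, against 2.25% higher and 3.13% lower of all genes. An unadjusted p under 0.05 was reached by 11 of 32 (34.4%), against 23.3% of all genes. These comparisons share the KO libraries with those above, so the same values enter both. Of the 32 genes, 6 did not overlap between male and female KO libraries (Cacnb3, Cacna1e, Cacnb1, Cacna1i, Scn3a and Scn2b), against 8.02% of all genes. The count of 4 became 1 without male KO 1 and 2 without male KO 2, male KO 4, female KO 3 or female KO 5, and Scn3a passed in each of these.

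Scn3a averaged 7.49 ± 0.232 FPKM in male KO and 6.51 ± 0.203 in female KO (SD, n = 5), a log2 difference of 0.18 (SE 0.04, limma adjusted p = 0.0128). In WT it averaged 7.19 ± 0.185 in males and 7.12 ± 0.363 in females, a log2 difference of 0.01 (adjusted p = 0.933). Cacna1e averaged 19.5 ± 1.04 FPKM in male KO and 16.9 ± 0.519 in female KO, a log2 difference of 0.20 (limma adjusted p = 0.0258). In WT the difference was -0.02 (adjusted p = 0.910).

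Cacnb4 had 26.7, 26.7, 24.1, 23.7 and 23.7 FPKM in male KO, against 21.2, 21.6, 20.3, 24.4 and 18.1 FPKM in female KO. The groups overlapped through female KO library 4, and the log2 difference was 0.24 (SE 0.06, limma adjusted p = 0.0309), with 0.07 in WT (adjusted p = 0.724). Cacnb1 averaged 21.1 ± 0.838 FPKM in male KO and 23.9 ± 1.03 in female KO, a log2 difference of -0.17 (limma adjusted p = 0.0298), with -0.05 in WT (adjusted p = 0.709). Cacna2d1 differed by 0.75 in KO (adjusted p = 0.109) and by -0.14 in WT (adjusted p = 0.912).

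The GC content of transcripts moved with the female KO libraries. Their slopes of expression on GC content ran from 0.0618 to 0.0759 log2 units per 10% GC, the 5 highest of the 20, against -0.0951 to 0.0311 in the other 15. Of the 11 channel genes above 55% GC, 6 lay above 0 in female KO, with a median log2 difference of 0.06 (0.07 over all such genes). Of the 7 below 45% GC, 1 lay above 0, with a median of -0.11 (-0.04 over all such genes). Cacnb1 is at 59.7% GC, Cacna1e at 48.3%, Cacna2d1 at 40.7%, Scn3a at 42.1% and Cacnb4 at 40.5%.

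**Figure D4:**
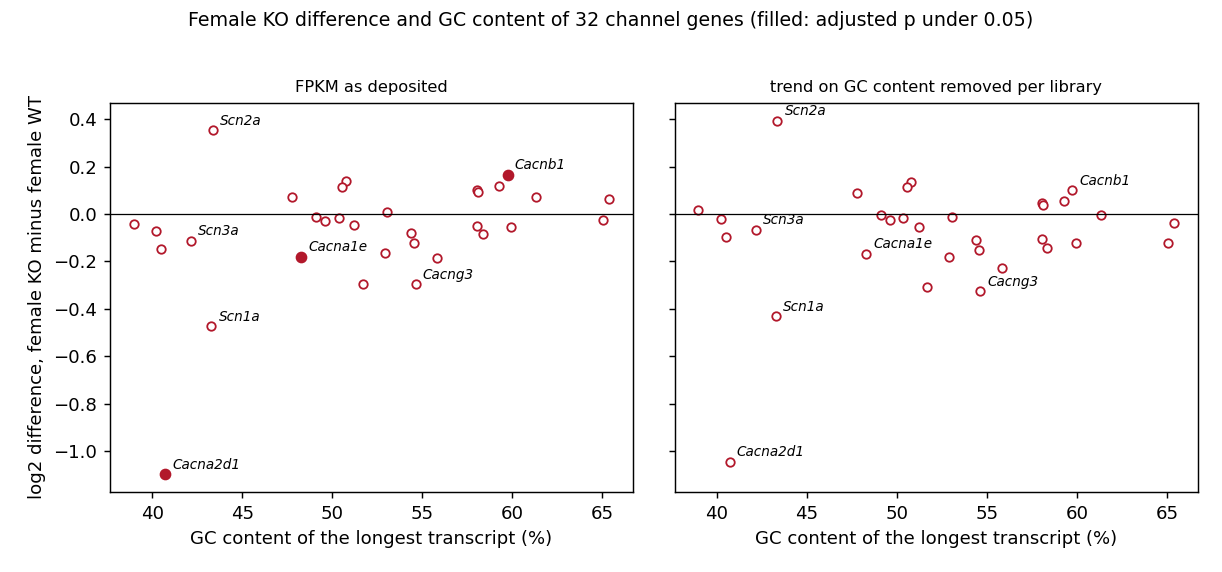
Log2 difference, female KO minus female WT, of the 32 channel genes against the GC content of their longest transcript (%), on FPKM as deposited (left) and with a smooth trend on GC content removed in each library (right). Filled points passed an adjusted p of 0.05. Cacna2d1 reads -1.10 on the left and -1.05 on the right, and no point is filled on the right.

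With a smooth trend on GC content removed from each library, 0 of 32 genes passed in limma between female KO and WT (9 at an unadjusted p under 0.05) or between male and female KO (10). The share of all tested genes that passed in this setting is not given, so a loss particular to the channel genes is not shown. Against female WT, Cacna2d1 in female KO then differed by -1.05 (adjusted p = 0.0545, and 0.0154 to 0.381 over all alternatives), Cacna1e by -0.17 (0.0613, and 0.0301 to 0.398) and Cacnb1 by 0.10 (0.159, and 0.0328 to 0.205). Between male and female KO, the log2 difference became 0.10 for Scn3a, 0.15 for Cacnb4, 0.18 for Cacna1e and -0.07 for Cacnb1.

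Cell type marker sums also differed in the female KO libraries. The 5 dentate granule cell markers summed to 39.9 to 56.1 FPKM in female KO and 55.1 to 69.3 in female WT, and the 4 CA3 and CA2 markers to 188 to 204 FPKM in female KO and 207 to 220 in female WT. The sum of the 5 GABA interneuron markers went the other way, at 405 to 450 FPKM (median 425) in female KO and 350 to 410 (median 388) in female WT. Gene by gene, 1 of these 5 passed, as higher, and their median log2 difference was 0.02. Of the dentate granule cell markers 2 of 5 passed, as lower, and of the CA3 and CA2 markers 0 of 4. In the CA1 list 1 marker passed, as higher, and 1 each in the oligodendrocyte and thalamus lists, as lower. Of all tested genes 3.32% passed in this comparison. Of the marker lists, only the CA3 and CA2 sums did not overlap between female KO and WT. The transthyretin gene Ttr, of choroid plexus, was above 500 FPKM in 4 libraries, and the pituitary hormone gene Prl was above 4 FPKM in 3, all female KO. Without the 4 Ttr libraries 1 gene, Cacna2d1, passed between female KO and WT. Without the 3 Prl libraries 0 passed (9 at an unadjusted p under 0.05). Between male and female KO 0 passed in limma without the Ttr libraries (9 at an unadjusted p under 0.05) or without the Prl libraries (9). The part of these cells in the channel differences was not tested.

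Proteins that bind the channels were described from lists of partners. Of 15 calcium channel partners described, the calmodulin gene Calm3 rose in female KO, to 555 ± 14 FPKM against 493 ± 25.4 in female WT (SD, n = 5, log2 difference 0.17, limma adjusted p = 0.0395). None passed in males, where Rrad, a small GTPase that inhibits calcium channels, had the smallest p (log2 difference 0.14, adjusted p = 0.662). Of 11 sodium channel partners described, none passed within a sex. Cntn1, an adhesion molecule of axons, had the smallest p in both, with log2 differences of -0.40 in females (limma adjusted p = 0.0635) and -0.25 in males (adjusted p = 0.566).

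Between male and female KO, Ank3, whose product ankyrin-G anchors sodium channels, was higher by 0.47 (limma adjusted p = 0.0432), and Calm3 was lower, with a log2 difference of -0.21 (adjusted p = 0.0166). In the mean KO effect, Cntn1 fell by 0.32 (limma adjusted p = 0.0382). Of 5 HCN partners in the files, 4 met the level rule and none of these passed in any comparison. The smallest p was that of Kcne2 in females (0.75, adjusted p = 0.538) and of the filamin gene Flna in males (0.16, adjusted p = 0.521). Of 4 genes of the NALCN sodium leak channel, none passed within a sex, where Unc80 had -0.11 in females (adjusted p = 0.201) and Fam155a -0.16 in males (adjusted p = 0.159). Fam155a fell by 0.12 in the mean KO effect (adjusted p = 0.0260).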

How the data were processed

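Per the labels' protocols, total RNA of the hippocampus was extracted with TRIzol and used for a SMARTER mRNA-Seq library. The submitters' processing notes name FastQC, HISAT2, StringTie and the build mm10, without versions; they give no annotation release or strand setting. The authors deposited FPKM per gene, 1 file per library, per the file headers. FPKM are not counts, so depth is unknown and no counting interval was computed. Reads of overlapping genes or near-identical paralogs may have been split by the counting, which is not stated.

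From these values, log2(FPKM + 1) was fitted with limma 3.58.1 in R 4.3.3 (limma-trend, 4 group means over 20 libraries). Benjamini-Hochberg adjustment ran over the 13174 genes at 0.5 FPKM or more in at least 5 libraries, with a threshold of 0.05, and differences on this log2 scale, computed from the deposited FPKM, understate changes of low genes. Tables were made with Python 3.11.15, pandas 2.3.3 and numpy 2.4.6. The fit was tested on simulated data with independent normal noise. These held no trend on GC content, so that test says nothing of calls that changed when the trend was removed. Groups and replicate numbers came from the titles. GC content is that of the longest GENCODE transcript (13146 of the tested genes), and the trend was removed by loess (span 0.5, degree 1). Alternatives were upper-quartile rescaling, a pseudocount of 0.1, a level filter of 2 FPKM or none, only the groups compared, a replicate block, the GC trend, leaving out libraries with Ttr above 500 or Prl above 4 FPKM, and leaving out each library.

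The genes, their roles, the partner and marker lists and the tests were chosen with earlier results of these data known. A few of the genes are not reported here, and the other 32 are named with their level. Log2 differences are given in all 6 comparisons for genes past the threshold in any, and in KO against WT for the most abundant gene and the genes of smallest p in each role group. Of partner lists, genes past the threshold are named, or else that of smallest p. Genes described by their values in each library beyond this rule (Cacna1b, Scn2b) were chosen after their values were seen. Log2 differences of Scn1a, Cacng4 and Cacna2d3 are also given beyond it, among the genes that are neighbours in the genome.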

Additional observations from a re-analysis of the deposited data

Results flagged for a closer look

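A library was picked out where it stood far from the other 4 of its group, by a gap of over 0.71 of the group's range (Dixon's criterion). Of 128 gene and group combinations, 11 did so. For normal values, chance picks out about 1 in 20. The share over all tested genes is not given, so an excess in the channel genes is not shown. Female KO 4 held 4 of the 11: Cacna1d was low there at 2.85 FPKM, Cacna1b low at 6.68, Cacng6 low at 0.270 and Hcn3 high at 2.15. Without female KO 4 the count of genes past the threshold between female KO and WT was 2 (Cacna2d1 and Cacnb1).

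Male WT 4 was low in Cacna1b at 9.0 FPKM and in Scn3a at 6.86. Female WT 4 was low in Cacna1i at 3.97 FPKM, and male KO 4 was high in the same gene at 5.35. Cacna2d1 was low in male WT 5 at 14.1 FPKM, Cacng5 in male WT 2 at 2.15 and Scn2b in male WT 3 at 32.7, against 56.2 to 63.1 in the other male WT libraries.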

How the results depend on the processing

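Between female KO and WT the 3 genes passed with upper-quartile rescaling, no filter, a filter of 2 FPKM and a pseudocount of 0.1. The count was 0 with the replicate block, the GC trend removed, only the groups compared or without the Prl libraries, and 1 without the Ttr libraries; it ran from 0 to 3 when 1 library was left out. The mean KO effect, with 0 genes, had 1 with upper-quartile rescaling, with a filter of 2 FPKM and without the Ttr libraries, and 0 to 1 when 1 library was left out. Between male and female KO the count of 4 became 0 with the GC trend removed, without the Ttr libraries and without the Prl libraries, was 5 with a filter of 2 FPKM and with only the groups compared, and ran from 1 to 4 when 1 library was left out. The counts of 0 in males, in the difference between the sexes' effects and between WT sexes were 0 under every alternative run. Same-numbered libraries did not deviate together gene by gene (30 pairs, correlations of -0.105 to 0.0632), which does not show that they are unpaired. Slopes on GC content did go with the number. In both male groups libraries 1 to 3 had lower slopes than libraries 4 and 5, and in both female groups higher ones. The block left 4 genes between male and female KO. Counts under the alternatives are given without the share of all tested genes in the same setting. They do not show whether a change was particular to the channel genes. The cause of each change was not tested. Depth cannot be set, since the files hold no counts.

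Among single genes, most of which were close to 0, log2 differences changed sign as follows. Without the Ttr libraries they became, in females, 0.0138 for Cacna1d, 0.0748 for Cacna1h, 0.0125 for Cacna1g, -0.0256 for Hcn3 and 0.0140 for Scn4b, and, in males, -0.0062 for Cacnb4, 0.0203 for Cacna1h, -0.0141 for Cacng5 and -0.0142 for Scn2a. Without the Prl libraries they became 0.0817 for Cacna1c and 0.0606 for Cacna1d in females. With the GC trend removed they became, in females, -0.0374 for Hcn2, -0.0056 for Cacnb3 and -0.0121 for Cacng6, and -0.0178 for Scn3a between males and females in WT. Upper-quartile rescaling gave 0.0051 for Cacna1h in males.

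When 1 library was left out, the log2 difference in females ran from -0.0461 to 0.0121 for Cacna1c, -0.0855 to 0.0415 for Cacna1d, -0.0984 to 0.0407 for Cacna1g, -0.0213 to 0.0521 for Cacng6 and -0.0157 to 0.157 for Scn3b. In males it ran from -0.0565 to 0.0412 for Cacna1h, -0.0105 to 0.0344 for Cacnb4, -0.0141 to 0.127 for Cacng5, -0.0747 to 0.0127 for Hcn2, -0.121 to 0.0036 for Scn4b and -0.0237 to 0.228 for Scn2a. Between males and females in WT it ran from -0.0484 to 0.0054 for Cacna1e, -0.195 to 0.0142 for Cacna2d1 and -0.00080 to 0.0394 for Scn3a.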

Other observations

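Some of these genes are neighbours in the genome (mm10), and their log2 differences shared a sign in some pairs and not in others. Scn3a, Scn2a, Scn1a and Scn7a lie in this order on chromosome 2 between 65457118 and 66784914. In female KO against WT, Scn3a had a log2 difference of -0.11, Scn2a 0.35, Scn1a -0.47 and Scn7a -0.07, and none passed. Scn3a and Scn2a lie 53.1 kb apart. The TARP genes Cacng7 and Cacng8 lie 22.5 kb apart on chromosome 7, with Cacng6 8.55 kb beyond. Cacng7 averaged 39.6 FPKM and Cacng8 32.7 FPKM over the 20 libraries, and Cacng6 0.459 FPKM. Scn2b and Scn4b lie 8.33 kb apart on chromosome 9, at 59.3 and 3.67 FPKM. Cacng4 and Cacng5 lie 80.05 kb apart on chromosome 11, with log2 differences of -0.08 and -0.30 in female KO against WT, and Cacna2d3 and Cacna1d lie 318 kb apart on chromosome 14, with -0.01 and -0.03.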
